A study of Homo sapiens with 20 samples.

Results

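Human breast cancer cells that had taken up photothermal nanoparticles and were then lit by a laser held at 54 °C were compared with cells that had received the same nanoparticles and no light. The comparison rests on 8 of the 20 libraries of the series, 4 at 54 °C and 4 with nanoparticles alone, chosen by their labels and set against each other across all genes. All cells were MDA-MB-231, an established line from a triple-negative breast cancer, grown for 24 h at 37 °C from 30000 cells per well. At 54 °C the cells had first spent 4 h in 200 µl of medium with 0.1 mg/ml of biomimetic nanoparticles and were then lit for 10 min with an 808 nm continuous-wave laser. With nanoparticles alone the cells had the same 4 h and no laser. The other groups were cells lit at 46 or 50 °C after the same nanoparticles, and untreated cells that had neither. Each RNA sample was a pool of 2 wells. Cells lit without nanoparticles were not analysed here, which means that heat and light cannot be told apart, and how long after the laser the cells were lysed is not stated in the labels. The library kit starts at the poly(A) tail, so that reads come from the 3' ends of transcripts.

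When cells are heated, unfolded proteins release the transcription factor HSF1, which binds heat shock elements and switches on genes of HSP70, HSP40 and other chaperones. Severe heat is known to stop splicing, translation and much of transcription, so that the mRNAs left in the cell reflect what was there before and how fast each one decays. Short-lived mRNAs, such as those of many transcription regulators, then disappear sooner than stable ones. Transcripts held in the nucleus, among them the paraspeckle RNA NEAT1 and the speckle RNA MALAT1, are outside the reach of cytoplasmic decay.

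Total estimated counts ran from 6154155 to 7710977 at 54 °C and from 2709082 to 4538998 with nanoparticles alone, so the 54 °C libraries were the deeper ones. Between 12791 and 14114 genes had a count at 54 °C, and between 12685 and 13333 with nanoparticles alone. Replicates of a group correlated at 0.904 to 0.942 at 54 °C and at 0.903 to 0.927 with nanoparticles alone in log2 CPM, the counts of a gene scaled to the size of its library, across genes, and in no pair of replicates did the counts agree within sampling noise. Over all 20 libraries, replicates 1 and 2 stood apart from replicates 3 and 4: 507 genes were higher and 565 lower in replicates 3 and 4, so the pair was a term of the fit. The labels name no batch behind it. The mesenchymal genes of this line were abundant, with VIM at 1862 ± 160 CPM at 54 °C and 1617 ± 146 CPM with nanoparticles alone (SD, n = 4 each), and 7 of 8 such markers were tested with none called. Luminal breast markers were present too: 8 of 12 were tested with none called. Their summed level was 484 to 588 CPM at 54 °C and 485 to 514 CPM with nanoparticles alone. Of the other cell types looked for, 2 of 10 macrophage and 2 of 8 fibroblast markers had enough counts to test, with summed levels of 11.5 to 18 and 6.21 to 12.3 CPM at 54 °C against 8.31 to 13 and 1.07 to 6.88 CPM with nanoparticles alone. None of the 9 lymphocyte or 8 red cell and platelet markers did.

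Of 12149 genes tested, 43 were called at 54 °C against nanoparticles alone, which is 0.354% of them. Called means an adjusted p under 0.05 in edgeR's quasi-likelihood test with Benjamini-Hochberg adjustment, which gives every adjusted p below unless another test is named. The called genes were 26 higher ones (0.214% of all) and 17 lower ones (0.140%), and 11 of the higher and 5 of the lower ones changed by at least 2-fold. The median log2 fold change of all genes was 0.01, and 910 genes had an unadjusted p under 0.05. In 36 of the 43 called genes the values of the groups did not overlap, as was the case for 4.28% of all genes tested (2.19% higher and 2.09% lower at 54 °C). Against the same libraries with nanoparticles alone, 263 genes were called at 46 °C (2.16%, with 1.29% higher and 0.872% lower) and 330 at 50 °C (2.72%, with 1.23% higher and 1.48% lower). In a bulk sample, fewer cells with a transcript and less of it per cell cannot be told apart.

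**Figure D1:**
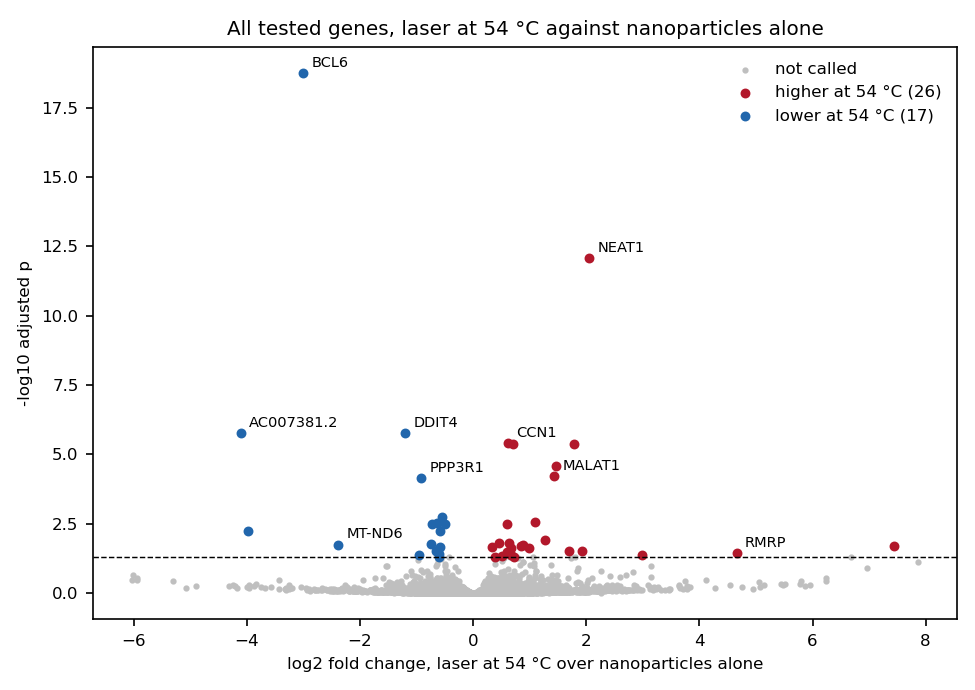
Each point is 1 of 12149 tested genes. The horizontal axis is the log2 fold change of 54 °C over nanoparticles alone, the vertical axis is minus log10 of the adjusted p, and the dashed line is the threshold of 0.05. The 26 red points are higher and the 17 blue points lower at 54 °C, and BCL6 and NEAT1 stand highest on the vertical axis.

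The falls began with BCL6, a zinc finger repressor known best as an oncogene of B-cell lymphoma, whose gene lies on the minus strand at chr3:187721377-187745727 (GRCh38). BCL6 had 10.5, 9.39, 9.65 and 15.8 CPM at 54 °C, against 90.9, 76.5, 108.7 and 88.7 CPM with nanoparticles alone. Every 54 °C library lay below every library with nanoparticles alone. The log2 fold change was -3.01 ± 0.21 (SE, adjusted p = 1.8e-19), an 8.05-fold lower level. BCL6 averaged 68.5 ± 11.2 CPM at 50 °C and 95.9 ± 7.85 CPM at 46 °C (SD, n = 4 each). The direct differences of 54 °C from these groups were -2.59 ± 0.21 on the log2 scale against 50 °C (adjusted p = 2.11e-16) and -3.09 ± 0.21 against 46 °C (adjusted p = 1.29e-20). Against nanoparticles alone, BCL6 did not pass the test at 50 °C (-0.42, adjusted p = 0.296) or 46 °C (0.08, adjusted p = 0.922). Leaving out any 1 of the 8 libraries left BCL6 called, with an adjusted p of at most 3.66e-16.

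The RefSeq table (GRCh38.p14) lists a pair of start sites for BCL6. Their windows, from 250 bases before to 50 bases after the start, are shown with those of 2 further genes that fell at 54 °C, PPP3R1 and DDIT4, because the factor that answers heat binds pairs of inverted NGAAN units. Capitals mark each match to the core of such a pair, GAANNTTC or TTCNNGAA, letters that are their own reverse complement.
BCL6, chr3:187745419-187745718, minus strand: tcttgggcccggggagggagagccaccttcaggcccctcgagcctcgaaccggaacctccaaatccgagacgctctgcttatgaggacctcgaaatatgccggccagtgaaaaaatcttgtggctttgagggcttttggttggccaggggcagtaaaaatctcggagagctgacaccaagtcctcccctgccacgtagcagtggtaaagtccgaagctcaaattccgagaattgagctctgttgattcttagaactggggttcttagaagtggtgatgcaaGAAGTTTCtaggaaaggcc
BCL6, chr3:187736452-187736751, minus strand: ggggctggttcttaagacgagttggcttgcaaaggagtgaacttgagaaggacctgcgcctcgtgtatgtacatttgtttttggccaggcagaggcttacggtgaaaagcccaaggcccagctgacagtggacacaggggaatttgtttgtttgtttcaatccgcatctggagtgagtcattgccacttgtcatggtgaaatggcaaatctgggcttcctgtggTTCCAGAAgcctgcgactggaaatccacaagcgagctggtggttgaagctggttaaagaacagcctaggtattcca
DDIT4, chr10:72273674-72273973, plus strand: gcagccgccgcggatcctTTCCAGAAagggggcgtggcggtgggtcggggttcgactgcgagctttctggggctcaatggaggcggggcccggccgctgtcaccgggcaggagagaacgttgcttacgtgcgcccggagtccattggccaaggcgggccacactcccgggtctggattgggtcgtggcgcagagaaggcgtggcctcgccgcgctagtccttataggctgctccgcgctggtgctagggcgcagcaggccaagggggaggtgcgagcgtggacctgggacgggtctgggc
PPP3R1, chr2:68252483-68252782, minus strand: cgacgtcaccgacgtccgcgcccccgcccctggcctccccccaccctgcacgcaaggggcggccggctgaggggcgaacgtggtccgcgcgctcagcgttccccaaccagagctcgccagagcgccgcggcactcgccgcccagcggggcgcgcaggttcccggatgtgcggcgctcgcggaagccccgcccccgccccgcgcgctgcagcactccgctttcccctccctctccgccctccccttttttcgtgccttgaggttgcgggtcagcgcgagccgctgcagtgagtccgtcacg
Both BCL6 windows and the DDIT4 window held 1 match, and the PPP3R1 window held none of these letters. Over all 35116 windows of the table, 13.5% held a match, and over the 13805 windows of tested genes 10.2% did. Of the windows of called genes, 5 of 22 from lower genes (BCL6, BMP4, DDIT4 and PAFAH1B2) and 4 of 27 from higher genes (ANKRD1, DGKD, DST and RPLP0) held a match. These windows came from 13 of the 17 lower and 18 of the 26 higher genes, and the others had no window under their symbol. A match is a run of letters and was not tested as a binding site.

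AC007381.2, an uncharacterised gene with no position or gene type in the annotation used here, was also lower at 54 °C than in every other laser group. It had 3.63, 1.52, 6.70 and 10.5 CPM at 54 °C, against 104.7, 75.5, 112.2 and 75.9 CPM with nanoparticles alone. The groups did not overlap, and the log2 fold change was -4.11 ± 0.36 (SE, adjusted p = 1.72e-06), a 17.3-fold lower level. Its mean was 63.4 ± 2.84 CPM at 50 °C and 90.9 ± 12.6 CPM at 46 °C (SD, n = 4 each). The 54 °C level differed from both, by -3.58 ± 0.35 on the log2 scale against 50 °C (adjusted p = 7.39e-06) and by -4.10 ± 0.36 against 46 °C (adjusted p = 4.42e-07).

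PPP3R1 encodes the calcium-binding regulatory subunit of the phosphatase calcineurin, at chr2:68178857-68256237. It had 72.7, 83.7, 82.4 and 48.6 CPM at 54 °C, against 144.9, 138.4, 115.8 and 143.5 CPM with nanoparticles alone. No value of 1 group reached the other, with a log2 fold change of -0.92 ± 0.15 (SE, adjusted p = 6.99e-05), and PPP3R1 stayed called without each of the 8 libraries in turn, but not in replicates 3 and 4 alone (-0.98, adjusted p = 0.0733). Untreated cells had 104 ± 6.29 CPM, and 54 °C did not differ from them beyond the threshold (-0.54, adjusted p = 0.11). At 50 °C its level was 76.0 ± 3.85 CPM, and the difference of 54 °C from 50 °C was -0.08 ± 0.15 on the log2 scale (adjusted p = 0.978). DDIT4, which encodes an inhibitor of the growth kinase complex mTORC1 that many stresses induce, had 82.2, 88.1, 65.2 and 41.6 CPM at 54 °C, against 177.4, 166.4, 137.6 and 139.3 CPM with nanoparticles alone. Its log2 fold change was -1.20 ± 0.17 (SE, adjusted p = 1.72e-06; 0.191 without a term for the replicate pair), and the groups were apart. DDIT4 was also low at 50 °C (63.7 ± 33.5 CPM) and 46 °C (61.6 ± 17.1 CPM), and 54 °C did not differ from either (adjusted p = 0.954 against 50 °C and 0.831 against 46 °C).

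**Figure D2:**
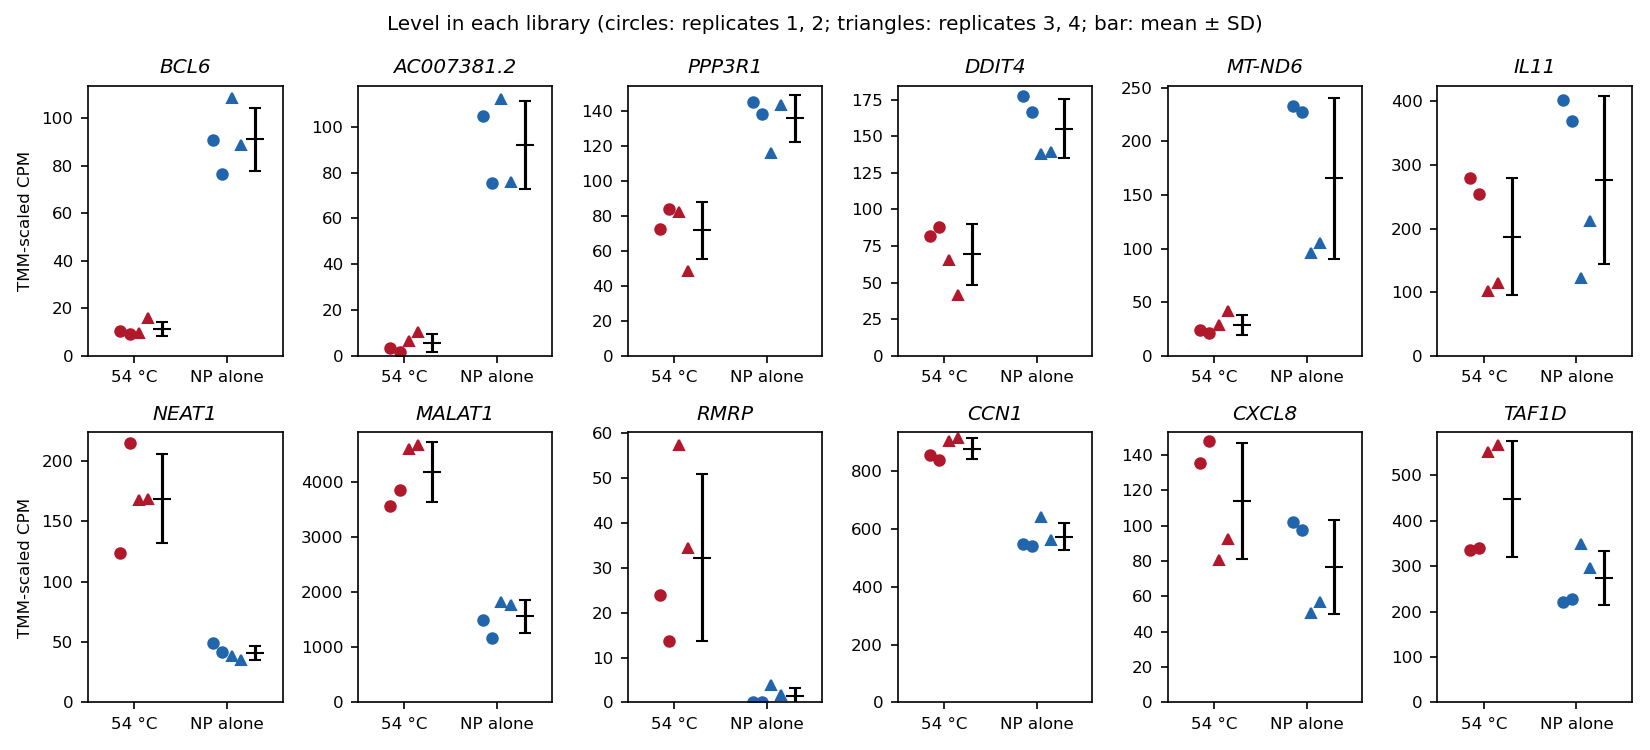
TMM-scaled CPM of 12 genes in each library, 54 °C (red) left of nanoparticles alone (blue), with circles for replicates 1 and 2, triangles for replicates 3 and 4, and a bar for the mean ± SD of 4. BCL6 sits between 9.39 and 15.8 CPM at 54 °C and between 76.5 and 108.7 CPM with nanoparticles alone, while IL11, CXCL8 and TAF1D overlap between groups and separate within each replicate pair.

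The smaller falls included regulators and signalling proteins. NR2F2, a nuclear receptor, averaged 292 ± 64.6 CPM at 54 °C and 422 ± 56.9 CPM with nanoparticles alone (log2 fold change -0.54, adjusted p = 0.00188). At 50 °C (249 ± 56.4 CPM) and 46 °C (241 ± 55.7 CPM) NR2F2 was called lower too (adjusted p = 1.01e-07 and 1.51e-08). FOXP1, a forkhead repressor, averaged 106 ± 5.0 CPM at 54 °C and 160 ± 11.5 CPM with nanoparticles alone (-0.59, adjusted p = 0.0213). FOXP1 was lower still at 50 °C, at 72.6 ± 13.1 CPM, and the difference of 54 °C from 50 °C was 0.54 ± 0.14 on the log2 scale (adjusted p = 0.0451). LRRC58, a leucine-rich repeat protein, was likewise higher at 54 °C than at 50 °C (0.64 ± 0.15, adjusted p = 0.02) while below nanoparticles alone (-0.73 ± 0.15, adjusted p = 0.00332). CRK, an adaptor of tyrosine kinase signalling, fell by 0.66 on the log2 scale, PAFAH1B2, a subunit of an enzyme that breaks down platelet-activating factor, by 0.50, and B4GALT5, a galactosyltransferase, by 0.60. CRK and PAFAH1B2 were also called lower than nanoparticles alone at 50 °C (adjusted p = 0.000546 and 3.46e-07), and B4GALT5 was not (adjusted p = 0.143). PDLIM1, a cytoskeletal LIM protein, fell by 0.60 and was also below its level at 50 °C (-0.60 ± 0.15, adjusted p = 0.0303). Of these 7 genes, NR2F2 and PAFAH1B2 stayed called without each library in turn, but not without the pair term (adjusted p = 0.676 and 0.12). LRRC58 lost its call without replicate 4 of nanoparticles alone (adjusted p = 0.0619), and the other 4 lost theirs without at least 5 of the 8 libraries, with the highest adjusted p between 0.0923 for FOXP1 and 0.314 for PDLIM1. Outside the naming rule, because their groups overlapped, SLC38A2, an amino acid transporter, and BMP4, a ligand of the BMP receptors, fell as well (-0.74 and -0.64, adjusted p = 0.0171 and 0.00301). SLC38A2 lost the call without replicate 4 of 54 °C (adjusted p = 0.253) or of nanoparticles alone. Without the pair term neither SLC38A2 nor BMP4 was called (adjusted p = 0.87 and 0.622). Both were also called lower than nanoparticles alone at 50 °C (adjusted p = 0.00145 and 4.05e-06) and 46 °C (adjusted p = 0.00156 and 4.09e-06). AC109466.1, an antisense transcript under the level set for naming, had 0.68 ± 0.94 CPM at 54 °C and 10.3 ± 2.38 CPM with nanoparticles alone (adjusted p = 0.00561).

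MT-ND6 encodes a subunit of respiratory complex I and is the only mRNA on the light strand of mitochondrial DNA, at positions 14149 to 14673. It had 24.1, 20.9, 29.1 and 42.3 CPM at 54 °C, against 233.5, 227.4, 95.8 and 105.4 CPM with nanoparticles alone. The groups did not overlap, but the libraries with nanoparticles alone split by replicate pair, and the log2 fold change was -2.38 ± 0.40 (SE, adjusted p = 0.0179). It was -3.35 in replicates 1 and 2 alone and -1.49 in replicates 3 and 4 alone, a difference of 1.86 ± 0.36 (adjusted p = 0.0349). MT-ND6 was the single gene, 0.00823% of those tested, whose change at 54 °C differed between the pairs, and 521 genes had an unadjusted p under 0.05 in that test. The MT-ND6 call was lost without replicate 1 (adjusted p = 0.0793) or 2 of 54 °C, or replicate 2 of nanoparticles alone. A strand setting of the authors' counting is not given in the sources used here, so reads of MT-ND6 and of the opposite strand over the same positions cannot be told apart. None of the other 12 mitochondrial mRNAs was called in this fit. The summed level of all 13 was 139970 ± 12570 CPM at 54 °C and 118500 ± 7790 CPM with nanoparticles alone (SD, n = 4 each), and it was 47208 CPM at 46 °C and 183410 CPM at 50 °C on average. MT-ATP8, a subunit of ATP synthase, had a log2 fold change of 0.76 ± 0.15 (adjusted p = 0.0509) against nanoparticles alone and was past the threshold with DESeq2 (adjusted p = 0.000388), with limma-voom (0.0349), under other scalings, with thinned libraries (0.0462) and in replicates 3 and 4 alone (0.0462). MT-CO3, a subunit of cytochrome c oxidase, had 0.40 ± 0.13 (adjusted p = 0.426) and passed in a fit of only the groups compared (adjusted p = 3.09e-06) and in replicates 1 and 2 alone (0.0395). MT-ATP6 had 0.26 (adjusted p = 0.806) and passed in replicates 3 and 4 alone (adjusted p = 0.0477). Against 46 °C, 10 of the 13 were higher at 54 °C, among them MT-CO3 by 2.43 ± 0.14 on the log2 scale (adjusted p = 5.26e-08), as were 0.560% of all tested genes. At 46 °C itself, 10 of the 13 were called lower than with nanoparticles alone, as were 0.872% of all tested genes, with a median log2 fold change of -1.24.

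Several of the rises were in noncoding RNAs. NEAT1, the scaffold RNA of paraspeckles, at chr11:65422774-65445540, had 124.0, 214.5, 167.6 and 168.6 CPM at 54 °C, against 48.9, 41.8, 38.6 and 34.9 CPM with nanoparticles alone. The groups did not overlap, and the log2 fold change was 2.05 ± 0.18 (SE, adjusted p = 8.48e-13), a 4.13-fold higher level. NEAT1 averaged 94.4 ± 11.3 CPM at 46 °C, 111 ± 38.5 CPM at 50 °C and 169 ± 36.9 CPM at 54 °C. The level at 54 °C was above that at 46 °C (0.84 ± 0.18, adjusted p = 0.0021), and its difference from 50 °C was 0.61 ± 0.17 on the log2 scale (adjusted p = 0.104). MALAT1, an RNA of nuclear speckles that lies downstream of NEAT1 at chr11:65497688-65506516, had 3579, 3865, 4602 and 4685 CPM at 54 °C, against 1498, 1166, 1817 and 1766 CPM with nanoparticles alone. Its log2 fold change was 1.43 ± 0.14 (SE, adjusted p = 6.05e-05). MALAT1 did not differ from 50 °C (0.17 ± 0.14, adjusted p = 0.89) or 46 °C (0.32 ± 0.14, adjusted p = 0.404) beyond the threshold. Of the 10 nuclear long noncoding RNAs tested, NEAT1 and MALAT1 were the 2 called higher, and none was lower. Of all tested genes, 0.214% were called higher and 0.140% lower. The median log2 fold change of the list was 0.28, against 0.01 for all genes.

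RMRP is the RNA of RNase MRP, which processes ribosomal RNA precursors, on the minus strand at chr9:35657751-35658018. It is shown whole because it is short, structured and normally without a poly(A) tail, while the libraries were primed on poly(A), and the capitals mark the last of its longest runs of A.
RMRP: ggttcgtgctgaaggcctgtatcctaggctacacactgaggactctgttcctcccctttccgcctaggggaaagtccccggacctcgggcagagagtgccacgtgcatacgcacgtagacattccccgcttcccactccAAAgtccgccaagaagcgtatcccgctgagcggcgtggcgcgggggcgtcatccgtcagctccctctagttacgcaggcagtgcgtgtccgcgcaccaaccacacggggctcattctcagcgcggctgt
The GENCODE sequence of 268 bases has no run of more than 3 A. RMRP had 23.8, 13.7, 57.2 and 34.3 CPM at 54 °C, against 0, 0, 3.93 and 1.72 CPM with nanoparticles alone. Every 54 °C library was higher, although both libraries at 0 allow up to 0.768 and 0.656 CPM, the level of 3 counts. The log2 fold change was 4.66 ± 0.88 (SE, adjusted p = 0.0355). The call was lost without 7 of the 8 libraries in turn, with an adjusted p of up to 0.129 without replicate 2 of nanoparticles alone. RMRP was high at every laser temperature, with 55.5 ± 4.24 CPM at 46 °C, 65.1 ± 15.1 CPM at 50 °C and 32.3 ± 18.6 CPM at 54 °C, and 54 °C did not differ from 46 °C (adjusted p = 0.699) or 50 °C (adjusted p = 0.752) beyond the threshold. Of the other structured RNAs tested, TERC (0.07 ± 0.34, adjusted p = 0.994) and SCARNA9 (-0.17 ± 0.48, adjusted p = 0.984) were not called.

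AC007952.4 is a 637-base noncoding transcript that spans the U3 small nucleolar RNA gene SNORD3D, at chr17:19112000-19112636. It had 69.8, 59.1, 74.9 and 58.6 CPM at 54 °C, against 24.3, 22.7, 27.9 and 20.9 CPM with nanoparticles alone. Here too the groups were apart (log2 fold change 1.47 ± 0.20, adjusted p = 2.7e-05), and the call held without each library in turn. At 50 °C its level was far higher, 351 ± 59.6 CPM, and 54 °C lay below both 50 °C (-2.41 ± 0.19, adjusted p = 3.75e-11) and 46 °C (-0.87 ± 0.19, adjusted p = 0.00815). TAF1D, which encodes a subunit of the RNA polymerase I factor SL1 and hosts small nucleolar RNAs in its introns, had 336.1, 339.9, 552.2 and 566.1 CPM at 54 °C, against 222.2, 228.5, 349.2 and 295.1 CPM with nanoparticles alone. The groups overlapped across the pairs and were apart within each pair (0.70 ± 0.10, adjusted p = 4.36e-06), and without a term for the pair the adjusted p was 0.22. TAF1D was the 1 called gene of 26 tested snoRNA hosts, where 0.354% of all tested genes were called. LINC00324 had 38.2 ± 12.1 CPM at 54 °C and 10.1 ± 2.38 CPM with nanoparticles alone (adjusted p = 0.0294). It had 158 ± 22.2 CPM at 46 °C and 259 ± 52.1 CPM at 50 °C, and 54 °C was lower than both (adjusted p = 0.00173 against 46 °C and 0.000183 against 50 °C). Its call against nanoparticles alone was lost without 7 of the 8 libraries in turn, with an adjusted p of up to 0.137 without replicate 2 of nanoparticles alone. The zinc finger gene ZNF277 had 30.2 ± 8.14 CPM at 54 °C and 8.68 ± 2.93 CPM with nanoparticles alone (1.78 ± 0.27, adjusted p = 4.36e-06), against 117 ± 15.7 CPM at 50 °C. ZNF277 was the 1 called gene of 357 with a ZNF symbol, near the share of 0.354% called among all tested genes. In the annotation, 8 of the 26 higher genes (30.8%) span an entry typed as a small structured RNA on their own strand. None of the 16 lower ones with a position does, and 7.96% of all tested genes do. The 8 include AC007952.4 and TAF1D with snoRNA genes, and RMRP, whose match is an entry of its own name. NEAT1 and MALAT1 matched Rfam elements that lie within them. CARS, CYB5D2 and ZNF277 complete the 8, with RNU1-91P, RF00019 and RN7SKP187. Whether each entry is an RNA apart from the gene that spans it was not tested, so the share is not one of host genes. The median span was 44929 bases for higher genes, 24591 for lower ones and 31478 for all tested genes. Whether length accounts for the share was not tested.

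**Figure D3:**
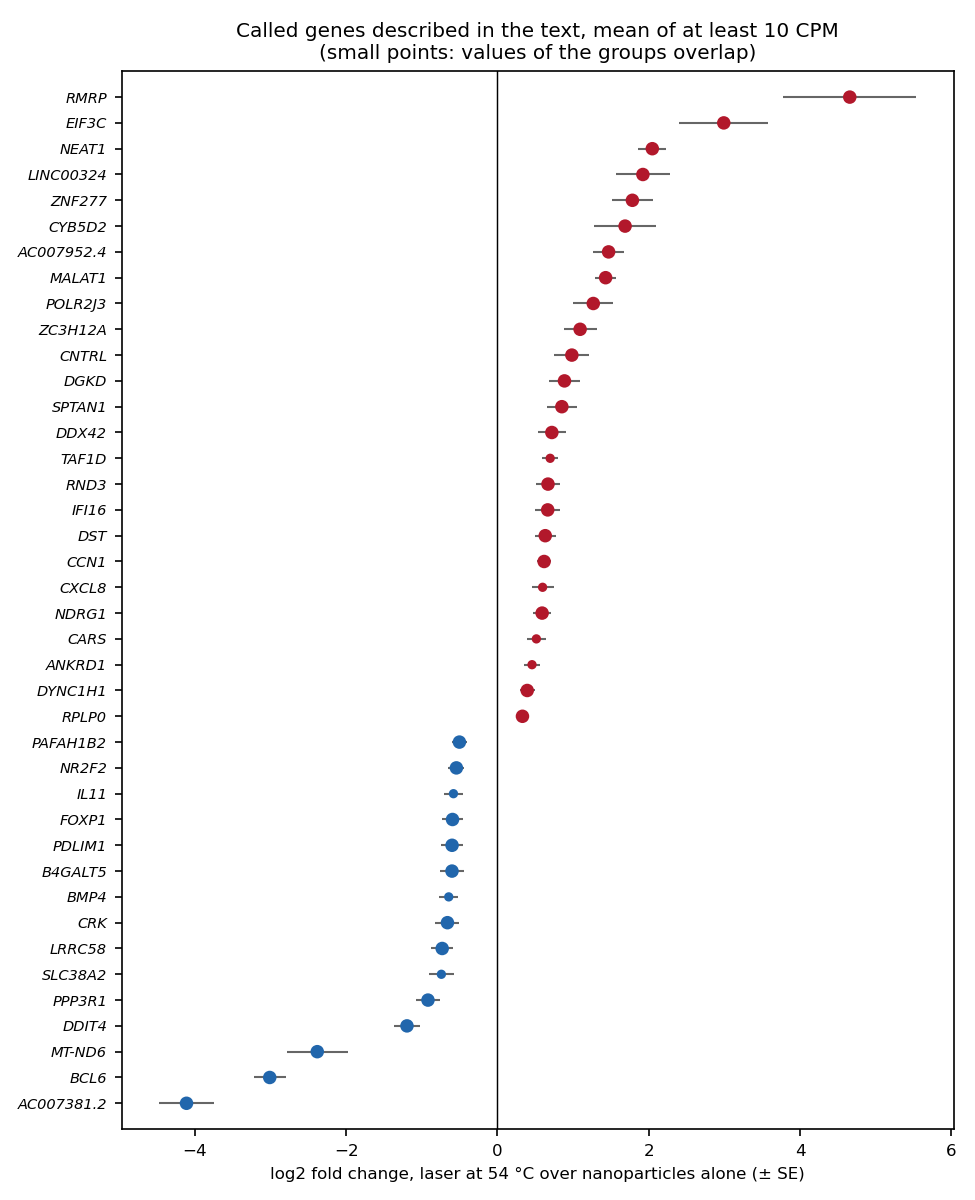
Log2 fold change of 54 °C over nanoparticles alone, with its SE, for the called genes described in the text with a mean of at least 10 CPM, red where higher and blue where lower at 54 °C, and small points where the values of the groups overlap. RMRP at 4.66 and AC007381.2 at -4.11 are at the ends, and most other changes are under 1 on the log2 scale.

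CCN1, a secreted matricellular protein and a target of the growth coactivator YAP, at chr1:85580761-85583962, had 853, 838, 903 and 912 CPM at 54 °C, against 549, 540, 640 and 561 CPM with nanoparticles alone. All 4 libraries at 54 °C lay above all 4 with nanoparticles alone, and the SDs were small (36.4 and 45.8 CPM). The log2 fold change was 0.62 ± 0.09 (SE, adjusted p = 3.98e-06), called without each library in turn. At 46 °C CCN1 was below nanoparticles alone (423 ± 29 CPM, -0.44, adjusted p = 0.00133), at 50 °C above it (1037 ± 147 CPM, 0.85, adjusted p = 3.06e-11). The 54 °C level was above that of 46 °C (1.05 ± 0.09, adjusted p = 1.48e-15) and did not differ from that of 50 °C beyond the threshold (-0.24 ± 0.09, adjusted p = 0.379). ANKRD1, a muscle ankyrin repeat protein and another YAP target, had 791.9, 704.7, 421.2 and 424.0 CPM at 54 °C, against 483.2, 488.8, 364.6 and 330.7 CPM with nanoparticles alone. The groups overlapped and were apart within each pair (0.46 ± 0.10, adjusted p = 0.0151), and without a term for the pair the adjusted p was 0.93. The ANKRD1 call was lost without 4 libraries in turn, with an adjusted p of up to 0.137 without replicate 1 of 54 °C. ANKRD1 was higher at 46 °C (1059 ± 318 CPM) than at 54 °C (-0.87 ± 0.10, adjusted p = 1.99e-09). CCN1 and ANKRD1 were the 2 called members of 22 tested targets of YAP and SRF, none was lower, and the median log2 fold change was 0.07. Among all tested genes, 0.214% were called higher and 0.140% lower. At 50 °C against nanoparticles alone, 5 of the 22 were called higher and none lower, and at 46 °C 4 higher and 1 lower. The shares of all tested genes were 1.23% higher and 1.48% lower at 50 °C, and 1.29% and 0.872% at 46 °C. For 54 °C against 46 °C, 3 were higher and 3 lower, against 0.560% and 0.757% of all tested genes.

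The ANKRD1 window in RefSeq is shown because YAP acts through TEAD factors, and capitals mark matches to the TEAD site GGAATG, searched on both strands as GGAATG or CATTCC.
ANKRD1, chr10:90921038-90921337, minus strand: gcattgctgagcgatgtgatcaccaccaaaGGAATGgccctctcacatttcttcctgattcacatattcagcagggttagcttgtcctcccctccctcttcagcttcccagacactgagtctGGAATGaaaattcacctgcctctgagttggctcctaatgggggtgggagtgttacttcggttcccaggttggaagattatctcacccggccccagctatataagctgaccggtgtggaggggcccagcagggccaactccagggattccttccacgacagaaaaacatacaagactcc
It held 2 matches. Over all windows 14% held at least 1, over those of tested genes 11.4%, and 6 of 27 windows of higher and 3 of 22 windows of lower called genes did. These windows came from 18 of the 26 higher and 13 of the 17 lower genes. CCN1 had no window in the RefSeq table and was not searched.

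Of 16 tested cytokines, 14 had a positive log2 fold change, with a median of 0.46, and 1 was called higher and 1 lower. Among all tested genes, 51.0% had a positive change, 0.214% were called higher and 0.140% lower. Against nanoparticles alone, the cytokine median was 0.74 at 50 °C (5 higher, 1 lower) and 0.40 at 46 °C (3 higher, 0 lower). The shares of all tested genes were 1.23% higher and 1.48% lower at 50 °C, and 1.29% and 0.872% at 46 °C. For 54 °C against 50 °C the median was -0.24 and no cytokine was called. For 54 °C against 46 °C the median was -0.20, with 1 higher and 1, CXCL8, lower, against 0.560% and 0.757% of all tested genes. CXCL8, which encodes the neutrophil chemokine interleukin-8, had 135.7, 147.8, 80.3 and 92.4 CPM at 54 °C, against 101.9, 97.3, 50.4 and 56.7 CPM with nanoparticles alone. It was higher within each pair although the groups overlapped (0.60 ± 0.15, adjusted p = 0.0341), without the pair term its adjusted p was 0.959, and it lost the call without 7 of the 8 libraries in turn, with an adjusted p of up to 0.151 without replicate 4 of 54 °C. CXCL8 was also called higher than nanoparticles alone at 46 °C (1.26, adjusted p = 6.34e-10) and 50 °C (0.77, adjusted p = 0.000273). The level at 54 °C was below that at 46 °C (-0.66 ± 0.14, adjusted p = 0.00268). IL11, a cytokine of the interleukin-6 family, had 279.5, 254.4, 102.0 and 114.4 CPM at 54 °C, against 402.0, 369.4, 122.6 and 211.3 CPM with nanoparticles alone (-0.58 ± 0.12, adjusted p = 0.00561). The IL11 call was lost without replicate 4 of nanoparticles alone (adjusted p = 0.277) or replicate 2 of 54 °C, and without the pair term (adjusted p = 0.989). IL11 was also called lower than nanoparticles alone at 50 °C (-0.79, adjusted p = 4.28e-06), but not at 46 °C (-0.35, adjusted p = 0.135). Its level at 54 °C differed from neither beyond the threshold (adjusted p = 0.74 against 50 °C and 0.479 against 46 °C). Among the cytokines not called, CSF3 had 1.80 ± 0.46 (adjusted p = 0.0509). ZC3H12A, the RNase Regnase-1 that degrades cytokine mRNAs, had 65.8 ± 6.12 CPM at 54 °C and 31.0 ± 6.10 CPM with nanoparticles alone (1.09 ± 0.22, adjusted p = 0.00276). It was called against 46 °C too (1.49 ± 0.22, adjusted p = 1.54e-06), where its level was 23.5 ± 7.58 CPM, and it lost the call against nanoparticles alone without replicate 4 of that group (adjusted p = 0.0503). At 50 °C ZC3H12A had 75.8 ± 12.2 CPM and was called higher than nanoparticles alone as well (1.29, adjusted p = 2.85e-05). The difference of 54 °C from 50 °C was -0.20 ± 0.21 (adjusted p = 0.927).

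The remaining rises ran from 0.33 to 2.99 on the log2 scale among genes that met the level for naming. EIF3C, a translation initiation factor with a near-identical copy that makes its count uncertain, had 34.8 ± 13.7 CPM at 54 °C and 3.98 ± 4.01 CPM with nanoparticles alone (2.99 ± 0.59, adjusted p = 0.0436), and untreated cells had 18.7 ± 11.5 CPM. POLR2J3, a member of a family of near-identical RNA polymerase II subunit genes and likewise uncertain, had 68.6 ± 4.42 CPM at 54 °C and 29.3 ± 17.9 CPM with nanoparticles alone (1.27 ± 0.27, adjusted p = 0.0124). NDRG1, a gene induced by hypoxia and stress, rose by 0.59 ± 0.12 (adjusted p = 0.00332) and was the 1 called gene of 21 in the glycolysis and hypoxia list. RPLP0, a stalk protein of the large ribosomal subunit, rose by 0.33 ± 0.08 (adjusted p = 0.0213) and was the 1 called of 82 ribosomal protein genes, whose median was -0.02. Of all tested genes, 0.354% were called. SPTAN1, the alpha chain of spectrin, rose by 0.85 ± 0.20, CNTRL, a centrosome protein, by 0.98 ± 0.23, and RND3, a small GTPase, by 0.67 ± 0.16. The lipid kinase gene DGKD rose by 0.89 ± 0.20, the RNA helicase gene DDX42 by 0.72 ± 0.18, IFI16, a sensor of foreign DNA, by 0.66 ± 0.17, and CYB5D2, a haem-binding protein, by 1.69 ± 0.40. Against nanoparticles alone, EIF3C, NDRG1, RND3 and IFI16 were also called higher at both 50 and 46 °C. DGKD, SPTAN1 and RPLP0 were so at 50 °C alone, CYB5D2 at 46 °C alone, and POLR2J3, CNTRL and DDX42 at neither. None of them differed between 54 and 50 °C beyond the threshold, and RPLP0 alone was called against 46 °C (0.29, adjusted p = 0.0344). Of these 11 genes, each lost its call without at least 1 library. EIF3C, POLR2J3, NDRG1, CNTRL, DGKD and CYB5D2 reached their highest adjusted p, between 0.108 and 0.262, without replicate 2 of nanoparticles alone, RPLP0 and IFI16 reached theirs, 0.224 and 0.175, without replicate 4 of 54 °C and of nanoparticles alone, SPTAN1 0.137 without replicate 3 of nanoparticles alone, RND3 0.217 without replicate 3 of 54 °C and DDX42 0.232 without replicate 2 of 54 °C. DST and DYNC1H1, which encode a cytolinker and the dynein heavy chain, and CARS, a tRNA synthetase gene, were the other higher genes (0.63, 0.39 and 0.51), and each lost its call without 2, 6 and 6 libraries in turn, with the highest adjusted p at 0.159 without replicate 4, 0.266 without replicate 2 and 0.367 without replicate 3 of nanoparticles alone. CARS was also called higher than nanoparticles alone at 50 and 46 °C, DYNC1H1 at 50 °C alone, and DST at neither. AC084082.1, outside the naming rule for its low level, had 141 counts in the 54 °C libraries and 0 with nanoparticles alone, a level at least 26.8-fold higher against the 3 counts over the group that a count of 0 allows. Replicate 4 of 54 °C held 70 of these counts, and without it the bound was 17.4-fold and the call was lost (adjusted p = 0.0923). The AC084082.1 call was also lost without each library of nanoparticles alone, with DESeq2 (adjusted p = 0.108), with limma-voom (0.17) and without the pair term (0.0625).

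In the fit of all replicates, none of the 39 tested cytosolic heat shock genes was called at 54 °C against nanoparticles alone, 3 had an unadjusted p under 0.05, and the median log2 fold change was -0.08. HSPA1A and HSPA1B, which encode the inducible HSP70 and are near-identical copies whose reads could be split, had 25.2, 17.6, 29.8 and 21.1 CPM and 17, 23.5, 40.2 and 29.8 CPM at 54 °C, against 38.2, 32.1, 21.8 and 22.4 CPM and 31.0, 26.7, 44.3 and 35.6 CPM with nanoparticles alone. Their log2 fold changes were -0.33 ± 0.27 (95% interval -0.91 to 0.25, adjusted p = 0.882) and -0.33 ± 0.16 (adjusted p = 0.64). In replicates 1 and 2 alone HSPA1A was called lower (-0.72, adjusted p = 0.0398), against 0.21 (adjusted p = 0.969) in replicates 3 and 4 alone, and the difference between the pairs had an unadjusted p of 0.00941 and an adjusted p of 1 in edgeR. DNAJB1, the HSP40 partner of HSP70, averaged 116 ± 16 CPM at 54 °C and 134 ± 9.77 CPM with nanoparticles alone (-0.21 ± 0.12, 95% interval -0.45 to 0.03, adjusted p = 0.752). HSPH1, an HSP110 chaperone, had a log2 fold change of 0.10 ± 0.12 (adjusted p = 0.949). HSPA6, an HSP70 gene that is silent without stress, was at 0 in all 4 libraries at 54 °C, which allows up to 0.112 CPM over the group, and averaged 0.85 ± 1.08 CPM with nanoparticles alone.

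At 46 °C the same genes stood far above their levels at 54 °C. HSPA1A averaged 23.4 ± 5.23 CPM at 54 °C and 1760 ± 325 CPM at 46 °C (-6.23 ± 0.29, adjusted p = 3.41e-09), DNAJB1 116 ± 16 CPM at 54 °C and 1645 ± 355 CPM at 46 °C (-3.83 ± 0.13, adjusted p = 1.22e-32). HSPA6 averaged 1142 ± 405 CPM at 46 °C. Of the 39 heat shock genes tested, 10 were lower and none higher at 54 °C than at 46 °C, against 92 lower (0.757%) and 68 higher (0.560%) of all genes. Of 33 tested immediate-early genes, which growth signals and stress switch on within minutes, 14 were lower and 1, CCN1, higher at 54 °C than at 46 °C. EGR1 had 18.3 ± 6.31 CPM at 54 °C and 979 ± 171 CPM at 46 °C (-5.75 ± 0.38, adjusted p = 2.86e-07), and FOS, JUN and IER5 were lower too (-7.36, -1.74 and -2.36, adjusted p = 0.0006, 4.13e-09 and 2.53e-31). The unannotated transcript AC010624.5 was lower by 5.90 ± 0.53. Against nanoparticles alone, CCN1 was the 1 called immediate-early gene at 54 °C, where 0.354% of all tested genes were called. FOS (-1.58 ± 1.10), EGR1 (0.57 ± 0.39), JUN (0.27 ± 0.16), ATF3 (-0.47 ± 0.49) and IER5 (0.08 ± 0.11) had adjusted p from 0.756 to 0.956. The comparisons of 54 °C with nanoparticles alone and with 46 °C share the 54 °C libraries.

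**Figure D4:**
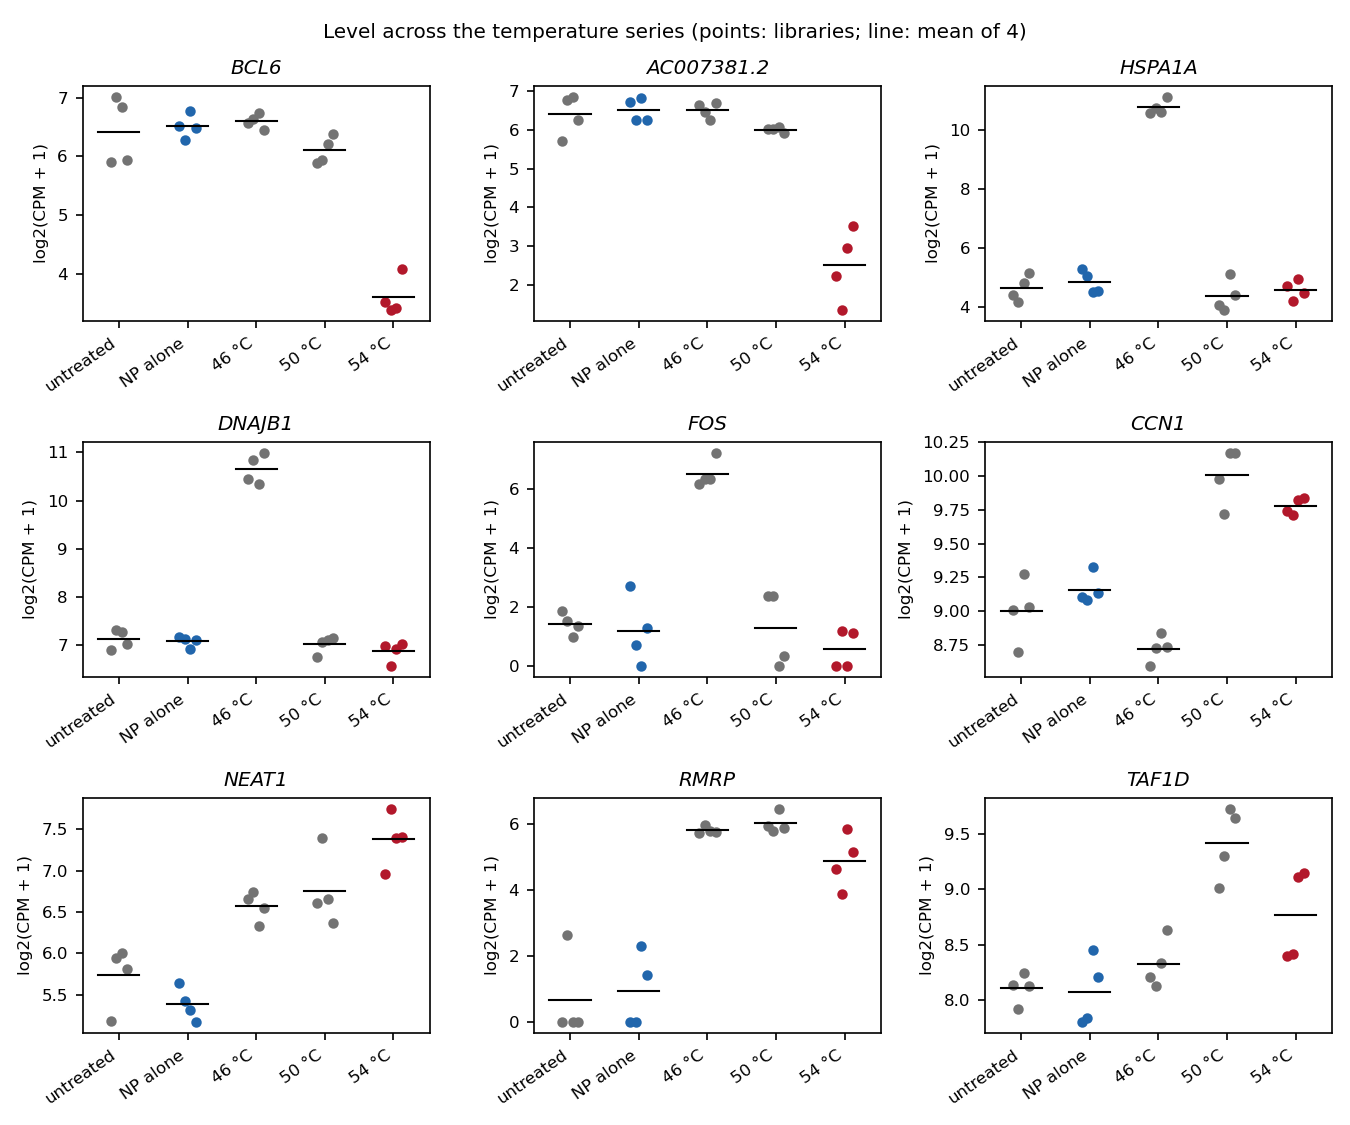
Log2(CPM + 1) of 9 genes in each library of untreated cells, nanoparticles alone, and 46, 50 and 54 °C, with points for libraries and a line for the mean of 4. BCL6 and AC007381.2 are low at 54 °C alone, HSPA1A, DNAJB1 and FOS are high at 46 °C alone, and NEAT1 and RMRP are above nanoparticles alone at all 3 temperatures.

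Against 50 °C, 33 genes were higher (0.272% of those tested) and 36 lower (0.296%) at 54 °C, and against 46 °C 160 genes differed (1.32%). By the same naming rule, the largest rises over 50 °C were in AGO3, a protein of RNA silencing (22.2 ± 4.55 CPM at 54 °C and 8.01 ± 2.92 CPM at 50 °C), LPGAT1, an acyltransferase (50.3 ± 14.2 CPM at 54 °C and 26.8 ± 6.67 CPM at 50 °C), TARDBP, an RNA-binding protein (89 ± 12 CPM at 54 °C and 49.0 ± 14.5 CPM at 50 °C), and HEXIM1, an inhibitor of the elongation kinase P-TEFb (56.5 ± 8.90 CPM at 54 °C and 31.6 ± 10.3 CPM at 50 °C). Their adjusted p ran from 0.000655 to 0.0374, and against nanoparticles alone their log2 fold changes at 54 °C were 0.51, 0.18, -0.08 and -0.05 with none called. The largest falls against 50 °C were in AC007381.2, the histone gene HIST1H2AG (-3.51 ± 0.58), MTRNR2L10 (-3.16 ± 0.56), a nuclear copy of mitochondrial ribosomal RNA, and LINC00324 (-2.80 ± 0.32). Among 30 tested splicing kinases and SR proteins, 7 were higher and none lower at 54 °C than at 50 °C, and none was called against nanoparticles alone.

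Of the other gene lists, most held no called gene at 54 °C against nanoparticles alone. Of 45 lists, 12 had a called member, and 2 had no tested one. The labile transcription regulators had 2 lower members of 25 tested, BCL6 and PPP3R1, with a median of 0.08. Of all tested genes, 0.140% were called lower. That list was put together with earlier results in view, and in it PPP3R1 is no transcription factor. The integrated stress response had DDIT4 as its 1 called member of 18, with CHAC1 at 2.01 ± 1.02 (adjusted p = 0.675) and ATF4 at 0.21 ± 0.12 (adjusted p = 0.77). The 22 unfolded protein response genes, 11 p53 targets, 14 NF-kB factors, 19 interferon-stimulated genes, 25 cell death genes, 37 proteasome subunits and 80 nuclear subunits of oxidative phosphorylation had none, with medians from -0.13 to 0.22. The 29 tested replication-dependent histones had none either, with a median of 0.39. MYC averaged 35.1 ± 3.90 CPM at 54 °C and 22.1 ± 4.37 CPM with nanoparticles alone, without overlap, and did not pass the test (0.67 ± 0.31, 95% interval 0.06 to 1.28, adjusted p = 0.608). Its partner MAX had -0.09 ± 0.15 (adjusted p = 0.971). The checkpoint ligand gene CD274, which encodes PD-L1, averaged 20.2 ± 7.58 CPM at 54 °C and 22.2 ± 5.09 CPM with nanoparticles alone (-0.18 ± 0.32, 95% interval -0.81 to 0.46, adjusted p = 0.975), and CD47, a signal against phagocytosis, 53.8 ± 11.5 CPM at 54 °C and 62.7 ± 11.7 CPM with nanoparticles alone (-0.22 ± 0.20, adjusted p = 0.893). HMOX1, the haem oxygenase, had 1.00 ± 0.62 (adjusted p = 0.782) against nanoparticles alone.

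The 43 genes were called on the same 8 libraries that make up both pairs, so that their equal sign in replicates 1 and 2 and in replicates 3 and 4 is no separate check; of all genes fitted in both pairs, 55% had the same sign. In the first pair alone 12 of the 43 were called, in the second pair alone 15, and 8 in both. With no term for the pair, 15 genes of all those tested were called, 9 higher and 6 lower. NEAT1 had a log2 fold change of 1.91 in replicates 1 and 2 and 2.20 in replicates 3 and 4, BCL6 of -3.07 and -2.95, and CCN1 of 0.64 and 0.60. Of the 43, 41 were also called by DESeq2 and 40 by limma-voom, and 14 stayed called without each of the 8 libraries in turn. Set against untreated cells in place of nanoparticles alone, 27 of the 43 were called and 16 were not. The change was then 0.94 for EIF3C (adjusted p = 0.644), 0.67 for POLR2J3 (0.36), 0.36 for CYB5D2 (0.881), whose level in untreated cells was 13.7 ± 6.06 CPM, and -1.53 for MT-ND6 (0.169). CNTRL, SPTAN1, IFI16, NDRG1, RPLP0, DST, PAFAH1B2, PDLIM1, B4GALT5, CRK and PPP3R1 were among the others not called against untreated cells. CYB5D2 also lost its call with limma-voom (adjusted p = 0.0808). The genes called under every setting run were NEAT1, AC007952.4, MALAT1, CCN1, BCL6 and AC007381.2.

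**Figure D5:**
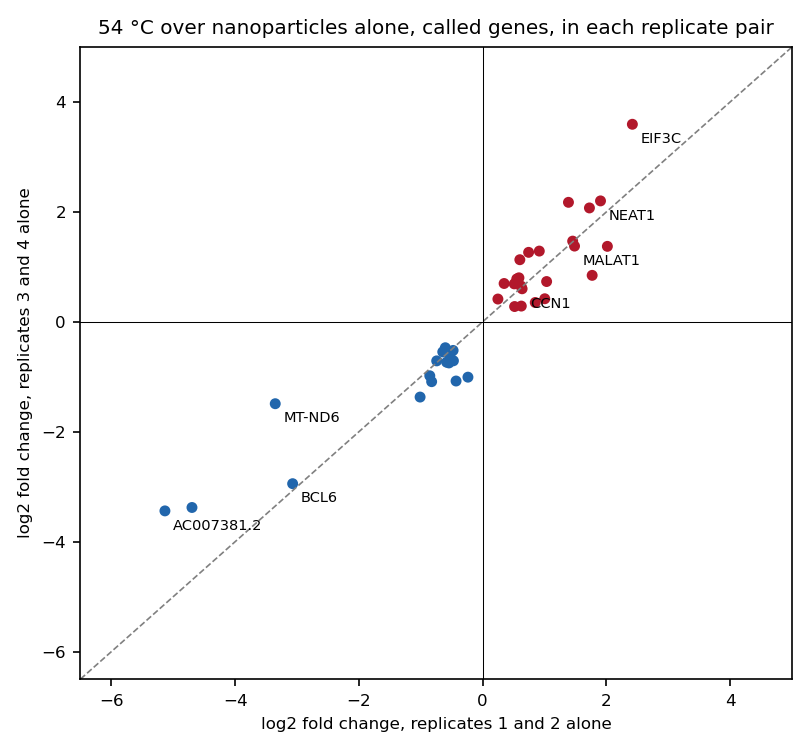
Log2 fold change of 54 °C over nanoparticles alone for the called genes, in replicates 1 and 2 alone (horizontal) and in replicates 3 and 4 alone (vertical), with red for higher and blue for lower genes and a dashed line of equal change. RMRP and AC084082.1 are not drawn since both libraries with nanoparticles alone are at 0 in the first pair, the genes were called on these same libraries, and MT-ND6 lies at -3.35 and -1.49.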

How the data were processed

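The authors deposited 1 table of estimated counts for all samples. Its upstream tools were STAR and Salmon, and its build GRCh38, per the submitters' processing notes; their versions, the gene annotation, the strand setting and any use of molecular identifiers are not stated there. Values were rounded to whole counts (1.93% to 2.9% of values in the 54 °C libraries were not whole). Genes were filtered by edgeR's filterByExpr with a minimum count of 10 and a total of 15, which left 12149 of 36601 genes, and tested with edgeR 4.0.16 in R 4.3.3 (robust quasi-likelihood fit, TMM scaling) on all 20 samples, with a mean per group and a term for the replicate pair (1 and 2 against 3 and 4). P-values were adjusted over all tested genes. CPM values are TMM-scaled, with mean ± SD over 4 libraries; fold changes are log2 with the SE of the fit. The labels do not say that replicates were separate cultures, so a p-value reflects the spread between these samples alone, and that spread may be technical. Limits from counts cover counting error at most, since PCR copies are not independent molecules. The 95% intervals come from the SE of the fit, which includes the spread between libraries.

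Genes named were the 16 largest rises and up to 16 falls (13 met the rule) among called genes with a mean of at least 10 CPM over the 8 libraries and no overlap between groups, BCL6, NEAT1, CCN1 and PPP3R1, the 3 called members of smallest p of each list, a fixed set of stress, MYC, checkpoint and noncoding genes, and 4 rises and 4 falls against 50 °C and 46 °C. A gene that met the rule is not reported here. The comparison, the pair term, the members and the gene lists were chosen with earlier results of these data known, so they are no independent evidence. Positions and the RMRP sequence are from GENCODE v29 on GRCh38, promoter windows from RefSeq on GRCh38.p14; 36366 identifiers were found in the name table, and 10 symbols had more than 1. Same-numbered libraries of the 54 °C and nanoparticles-alone groups deviated from their group means with correlations of 0.05 to 0.07 across genes. Different-numbered libraries of the same replicate pair gave 0.03 to 0.05, and libraries of different pairs -0.08 to -0.03. Whether the numbers pair the samples beyond the replicate pair cannot be told from these values. The alternatives were DESeq2 1.42.0, limma-voom 3.58.1, other scalings and filters, thinned libraries, fits of fewer samples, a replicate block and leaving out each library. The fit was tested on simulated data first.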

Additional observations from a re-analysis of the deposited data

Results flagged for a closer look

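Over 69 genes, 136 groups of 4 values were looked at for a library far from the other 3, and 6 of them (4.41%) held one, while chance gives about 1 in 20. At 54 °C, replicate 4 was high for BCL6, at 15.8 CPM against 9.39 to 10.5 CPM in the other libraries, and for AC084082.1, at 11.7 CPM against 2.62 to 3.80 CPM, and low for FOXP1, at 98.2 CPM against 107 to 109 CPM. Replicate 3 of 54 °C was low for DGKD, at 77.7 CPM against 87.1 to 88.7 CPM, and replicate 2 of 54 °C was high for EGR1, at 27.6 CPM against 14 to 16.1 CPM. With nanoparticles alone, replicate 1 was low for CD274, at 14.6 CPM against 24.3 to 25.4 CPM. The change of MT-ND6 at 54 °C differed between the replicate pairs by 1.86 on the log2 scale (replicates 3 and 4 minus 1 and 2, edgeR interaction test, adjusted p = 0.0349), in the test of the difference itself.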

How the results depend on the processing

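No direction of a called gene turned under any setting run. The 43 genes called at 54 °C against nanoparticles alone (26 higher, 17 lower) became 70 with DESeq2 (43 and 27), 69 with limma-voom (35 lower), 65 with no filter (41 higher), 15 with no pair term (9 and 6), 15 in replicates 1 and 2 alone (10 and 5) and 22 in replicates 3 and 4 alone (16 and 6). Leaving out 1 library gave 20 to 36 (11 to 19 higher, 9 to 17 lower), with the lowest counts without replicate 2, 3 or 4 of nanoparticles alone (25, 26 and 20). A replicate block in place of the pair term gave 46. The share of higher genes was 60.5%, 49.3% with limma-voom. The 69 genes against 50 °C became 120 with DESeq2, 114 with limma-voom, 24 with no pair term, and 38 and 22 in the first and second pair alone, and 32 to 63 without 1 library; 47.8% were higher, and 76.7% with library totals. The 160 genes against 46 °C (42.5% higher) became 261 with library totals (18.4% higher), 77 with no pair term and 43 in replicates 3 and 4 alone, and 104 to 176 without 1 library. The 1 gene that differed between the pairs became 4 with DESeq2, 2 with limma-voom, with only the groups compared and with a replicate block, 3 with no filter, and 0 with thinned libraries, with mitochondrial mRNAs left out and with upper quartile scaling, and 0 to 10 without 1 library. The mitochondrial setting removes MT-ND6 itself; for the other changes the cause was not tested. Of 987 medians of gene lists recomputed, 65 moved by more than their spread. The libraries with nanoparticles alone are the shallower ones, and thinning all libraries to the smallest total left 40 genes called.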
